A study of Mus musculus with 14 samples.

Results

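AMPA receptors are the glutamate-gated ion channels that carry most fast excitatory transmission in the cortex. The genes described here are the 4 channel subunits (Gria1, Gria2, Gria3 and Gria4) and 5 proteins that travel with or hold the channel: the TARPs Cacng2, Cacng3 and Cacng8, the cornichon Cnih2 and the scaffold Grip1. They were chosen by gene symbol from a count table of 23412 genes, and all 9 were found there and passed the filter on low counts in both assays.

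Mouse cortex was profiled by RNA-seq and by ribosome profiling to ask how transcription and translation differ without Fmr1, which encodes FMRP, a protein that binds mRNA. In ribosome profiling, the sequenced fragments are those covered by a ribosome and so spared by nuclease, and they are called footprints. Controls carried the genotype Rpl22flox/flox;CamKCre+, and knock-out (KO) mice carried the same 2 alleles together with Fmr1X-Y. Both genotypes therefore had the floxed Rpl22 of the RiboTag line, and the source label names CAMKIIa-Ribotag brain. The protocols name no pull-down of tagged ribosomes, so all values are read here as bulk cortex. No ages are given in the labels. The 4 control RNA libraries were mice 1, 3, 6 and 8, and the 4 KO RNA libraries were mice 2, 4, 5 and 7. Footprint libraries came from control mice 1, 3 and 9 and KO mice 2, 4 and 10, so only mice 1 to 4 were measured in both assays. Totals were 8847547 to 11371851 counts per RNA library and 4124065 to 6033030 per footprint library.

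A tetramer of Gria subunits forms the pore. Gria2 mRNA is edited, and the edited subunit makes the channel nearly impermeable to calcium, so the mix of subunits sets what the channel passes. TARPs are membrane proteins that bring the channel to the synapse and slow its closing. Cacng2 (stargazin) is the founding TARP, Cacng3 is a close relative in cortex, and Cacng8 is best known from hippocampal pyramidal cells. Cnih2 helps the channel leave the endoplasmic reticulum and prolongs its currents, and Grip1 binds the tails of Gria2 and Gria3. FMRP is known for binding mRNAs of many synaptic proteins and for lowering their translation, and surface AMPA receptors are removed in excess in Fmr1 KO neurons during mGluR-dependent depression.

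Fmr1 itself was read first. In RNA it stood at 89.9, 88.0, 82.4 and 71.3 CPM (counts relative to the library total, with TMM factors) in control mice 1, 3, 6 and 8, and at 23.4, 22.4, 18.1 and 22.7 CPM in KO mice 2, 4, 5 and 7. In footprints the controls had 111, 114 and 115 CPM and the KO mice 8.54, 5.82 and 7.96 CPM. The genotype labels therefore held in every library. All 7 excitatory neuron markers were found in each library, with a summed RNA level of 2555 to 2824 CPM in controls and 3186 to 3466 CPM in KO mice. Their footprints summed to 5623 to 5758 CPM in controls and 5403 to 5666 CPM in KO mice, which overlapped. Markers of neighbouring tissue were present as well. A list of 4 hypothalamic genes summed to 89.2 to 97.5 CPM in control footprints and 32.0 to 34.6 CPM in KO footprints and all 4 were called lower there. A list of 4 hippocampal genes summed to 244 to 256 CPM in control footprints and 169 to 179 CPM in KO footprints, but only 1 of the 4, Wfs1, was called. Wfs1 made up most of the sum, with a mean of 219 CPM in control and 141 CPM in KO libraries, while Prox1, C1ql2 and Neurod1 had 16.5, 2.77 and 12.3 CPM in controls and 15.8, 2.58 and 14.3 CPM in KO mice. Markers of 3 oligodendrocyte precursor genes summed to 373 to 379 CPM in control footprints and 291 to 311 CPM in KO footprints, and all 3 were called lower. The RNA libraries of KO mice 2, 4 and 7 were nearly identical, with 1.18 to 1.32 as the chi-square per degree of freedom of a pair over genes with at least 20 counts, where 1 is counting noise. The other 9 pairs of 1 genotype gave 1.99 to 11.8. The labels number the 3 as separate mice, and the counts cannot tell separate animals from repeat preparations of 1 sample. With the 3 summed to 1 library, 85 genes were called in RNA in place of 1014.

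The calls among the 9 receptor genes were few, and each called change was under 0.5 on the log2 scale. In RNA, 1 of the 9 genes was called (edgeR quasi-likelihood test, adjusted p under 0.05 over all genes), and it was higher in KO mice. Over all 13507 genes tested in RNA, 7.51% were called in either direction and 3.58% were called higher. In footprints 3 of the 9 were called, Gria1, Gria2 and Cacng8, all lower in KO mice. This split depended on the scaling, since on plain library sizes the 3 called were Cacng8 lower and Gria3 and Cacng3 higher. The background there was 25.7% of 12158 genes called in either direction and 13.7% called lower, and 3 of 9 is 33.3%. In translational efficiency (TE, footprints per unit of RNA), edgeR called 0 of the 9, where 7.43% of 12145 genes were called. The median log2 fold change of the 9 genes was -0.02 in RNA, -0.01 in footprints and -0.02 in TE, beside -0.001, 0.006 and -0.01 over all genes tested. On plain library sizes the footprint and TE medians of the 9 were 0.05 and 0.05, beside 0.07 and 0.05 over all genes. In bulk tissue, fewer cells of a type and less RNA per cell cannot be told apart in any of these values.

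**Figure D1:**
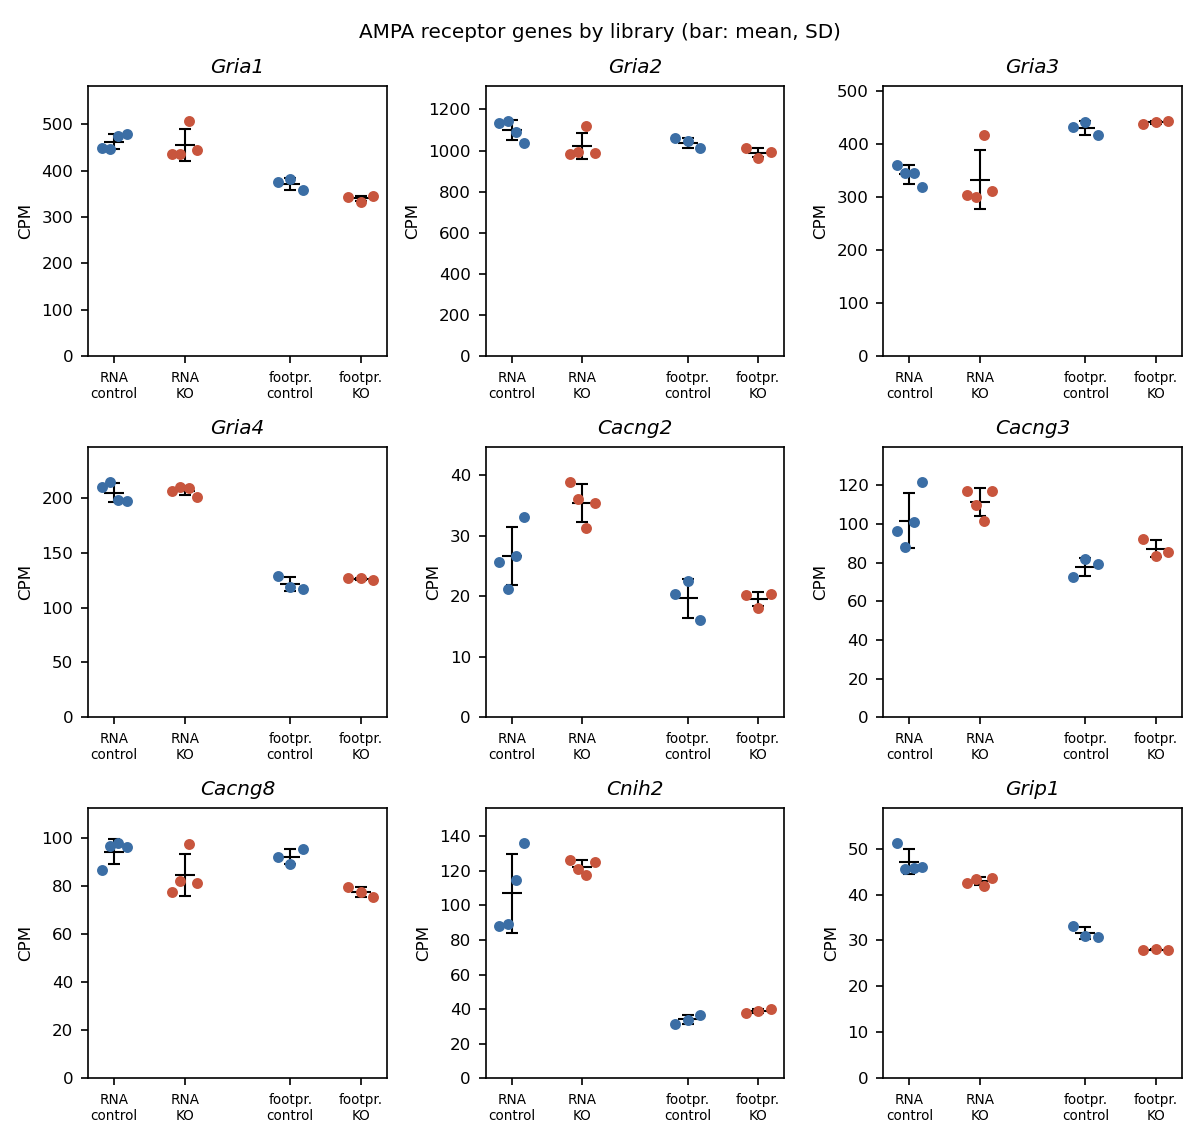
CPM of each of the 9 genes in every library (y axis from 0), with RNA on the left and footprints on the right of each panel, control in blue and KO in red. Points are libraries, and bars give the mean and SD of 4 RNA or 3 footprint libraries. Cacng2 RNA lies between 21.2 and 33.0 CPM in controls and between 31.3 and 38.8 CPM in KO mice, and Cacng8 footprints are lower in all 3 KO libraries.

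Gria1, the subunit most tied to activity-driven insertion at synapses, had fewer footprints in KO mice. Its footprint levels were 374, 383 and 357 CPM in control mice 1, 3 and 9 and 342, 333 and 345 CPM in KO mice 2, 4 and 10. Each KO library lay below each control library. The fall was 8.46% (log2 fold change -0.13, SE 0.034, adjusted p = 0.00244, edgeR). The call was lost on plain library sizes (-0.07, adjusted p = 0.129, edgeR) and in a single fit over all 14 libraries (-0.13, adjusted p = 0.149, edgeR). It held in the 10 other alternatives. In RNA, controls had 448, 447, 474 and 479 CPM and KO mice 435, 436, 506 and 444 CPM. KO mouse 5 was above every control while the other 3 KO mice were below every control, and the RNA log2 fold change was -0.02 (SE 0.059, adjusted p = 0.871, edgeR).

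Gria2, which carries the edited pore site, had a small footprint difference that depended on the settings. Control footprints were 1059, 1045 and 1009.9 CPM and KO footprints 1012, 965 and 994 CPM, so KO mouse 2 lay just above control mouse 9. The log2 fold change was -0.07 (SE 0.024, adjusted p = 0.0292, edgeR). It was not called on plain library sizes (-0.007, adjusted p = 0.858, edgeR), with DESeq2 (adjusted p = 0.115) or in the 14-library fit (adjusted p = 0.421, edgeR). Nor was it called without control mouse 1 (adjusted p = 0.154, edgeR), control mouse 3 (0.0760), KO mouse 4 (0.204) or KO mouse 10 (0.0625), where the log2 fold change lay between -0.07 and -0.05. Its RNA was 1133, 1142, 1090.1 and 1037 CPM in controls and 985, 995, 1118 and 987 CPM in KO mice. KO mouse 5 lay above control mice 6 and 8 there, while the other 3 KO mice lay below every control. The RNA change of -0.11 ± 0.058 (SE) was not called (adjusted p = 0.279, edgeR).

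Gria3 and Gria4 had no called difference in any of the 3 comparisons as designed. Gria3 was called in 1 alternative of each: in RNA within mice 1 to 4 (-0.22), in footprints on plain library sizes (0.09, adjusted p = 0.0154, edgeR) and in TE with mouse as a block (0.22). Gria3 is an X-linked subunit of cortical neurons, and its footprints were 432, 441 and 416 CPM in controls and 437, 440.1 and 442 CPM in KO mice, a log2 fold change of 0.03 (95% interval -0.03 to 0.10). Its RNA was 360, 345, 345 and 319 CPM in controls and 304, 299, 416 and 310.1 CPM in KO mice. KO mouse 5 was the highest and the other 3 KO mice were the lowest of the 8 libraries. Gria4, a subunit prominent in interneurons, had control footprints of 129, 119 and 117 CPM and KO footprints of 127, 127 and 125 CPM, a log2 fold change of 0.06 (95% interval -0.05 to 0.17). The 6 inhibitory neuron markers summed to 1621 to 1667 CPM in control footprints and 1694 to 1721 CPM in KO footprints. Their members went both ways: Sst (0.29), Vip (0.28) and Pvalb (0.20) were called higher, Gad2 (-0.18) was called lower, and Gad1 (0.02) and Slc32a1 (-0.01) were not called. Their part in the Gria4 values was not tested. Gria4 RNA lay between 197 and 214 CPM in controls and between 201 and 210 CPM in KO mice, a log2 fold change of 0.01 (95% interval -0.10 to 0.12).

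The balance among the 4 subunits can be read within a library, where no scaling enters. Gria1 took 18.8% to 19.3% of the footprints on the 4 genes in controls and 17.8% to 18.1% in KO mice. Gria3 took 21.7% to 22.2% in controls and 22.8% to 23.6% in KO mice. Gria4 took 5.98% to 6.45% and 6.55% to 6.80%. These 3 shares did not overlap between genotypes, Gria1 being smaller and Gria3 and Gria4 larger in KO mice. Of all genes, 37.3% had scaled footprint levels that did not overlap, which is a different measure from these shares. On scaled levels Gria3 and Gria4 overlapped, and no background was computed for shares. The 4 shares sum to the whole, so they are not separate measurements and were not tested. The Gria2 share was 52.6% to 53.1% in controls and 51.7% to 52.8% in KO mice, and it overlapped. In RNA all 4 shares overlapped, with Gria1 at 20.8% to 23.6% in controls and 22.5% to 22.9% in KO mice. These are shares of counts, not of receptor protein, and they depend on transcript length.

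Of the 3 TARPs, Cacng8 was the only 1 called in footprints and Cacng2 the only 1 called in RNA, and the differences between them were not tested. Cacng8 had fewer footprints in KO mice, with 92.1, 89.2 and 95.3 CPM in control mice 1, 3 and 9 and 79.7, 77.5 and 75.6 CPM in KO mice 2, 4 and 10. The groups did not overlap. The fall was 15.9% (log2 fold change -0.25, SE 0.064, adjusted p = 0.00150, edgeR), and it was called under all 12 alternatives run for footprints, with adjusted p-values between 0.00107 and 0.0485. Cacng8 RNA was 86.6, 96.8, 97.8 and 96.1 CPM in controls and 77.4, 82.0, 97.6 and 81.3 CPM in KO mice. KO mouse 5 sat among the controls, and the RNA change of -0.16 ± 0.074 (SE) was not called (adjusted p = 0.211, edgeR). Without KO mouse 5 it was called (-0.23, adjusted p = 0.0312, edgeR).

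Lower Gria1 and Cacng8 footprints stood beside lower footprints of the hypothalamic and oligodendrocyte precursor markers in the same 3 KO libraries. Choroid plexus markers (7.08 to 9.67 CPM in controls, 2.13 to 5.15 CPM in KO mice) were lower too. So were oligodendrocyte (8194 to 8353, 8007 to 8049) and microglia markers (447 to 467, 434 to 443). Inhibitory neuron markers were higher without overlap, and the excitatory neuron, astrocyte, endothelium and striatum sums overlapped. Of the 4 hippocampal markers, Wfs1 fell by 0.63 ± 0.046 in footprints (SE, adjusted p = 1.83e-21, edgeR) and by 0.40 in RNA (adjusted p = 0.00343, edgeR). The other 3 were not called in either assay, with footprint log2 fold changes of -0.09 for Prox1, -0.07 for C1ql2 and 0.20 for Neurod1. The part of other tissue in the Gria1 and Cacng8 values was not tested.

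Cacng2 RNA was higher in KO mice, and its footprints were not. Control RNA was 25.7, 21.2, 26.7 and 33.0 CPM in mice 1, 3, 6 and 8, and KO RNA was 38.8, 36.1, 31.3 and 35.5 CPM in mice 2, 4, 5 and 7. The lowest KO library, mouse 5, lay below the highest control, mouse 8. The rise was 32.9% (log2 fold change 0.41, SE 0.11, adjusted p = 0.0395, edgeR). Footprints were 20.3, 22.6 and 16.1 CPM in controls and 20.2, 18.1 and 20.3 CPM in KO mice, and they overlapped. Their log2 fold change was -0.01, with a 95% interval of -0.27 to 0.26 that rests on 310 control and 263 KO counts in all.

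Of 18 alternatives run for RNA, 9 ended the Cacng2 call. Leaving out control mouse 1 (adjusted p = 0.0946, edgeR), 3 (0.0905) or 6 (0.0984) or KO mouse 2 (0.131), 4 (0.108) or 7 (0.0984) did so. The log2 fold change then lay between 0.32, without control mouse 3, and 0.41. Summing KO mice 2, 4 and 7 to 1 library gave 0.37 (adjusted p = 0.258, edgeR), and also summing control mice 1 and 3 gave 0.33 (adjusted p = 0.393, edgeR). Within mice 5 to 8, which share 1 title prefix, the log2 fold change was 0.16 (adjusted p = 0.689, edgeR), and within mice 1 to 4 it was 0.68 (adjusted p = 1.45e-05, edgeR). The spread within mice 1 to 4 may be technical, since KO mice 2 and 4 were nearly identical. With the prefix as a block the log2 fold change was 0.42 (adjusted p = 0.0418, edgeR). The summed RNA level of the 7 excitatory neuron markers was also higher in KO mice. Of these, 2 were called in RNA, Camk2a (0.75, adjusted p = 0.000739, edgeR) and Slc17a7 (0.20, adjusted p = 0.0366, edgeR), while Neurod6 (-0.05) and Slc17a6 (-0.24) had lower values and were not called. Camk2a footprints fell by 0.14 (adjusted p = 5.96e-10, edgeR). Other marker lists had lower summed RNA in KO mice without overlap. The 6 oligodendrocyte markers (1 called, lower) summed to 4884 to 5327 CPM in controls and 4267 to 4594 CPM in KO mice. The 3 oligodendrocyte precursor markers (1 called, lower) summed to 192 to 207 and 167 to 187 CPM. The 4 hippocampal markers summed to 130.2 to 140.4 and 105 to 116 CPM, and the 4 hypothalamic markers (3 called, all lower) to 31.3 to 61.2 and 12.8 to 18.7 CPM. The part of these markers in the Cacng2 rise was not tested.

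Cacng3, the next TARP, was higher in KO footprints without passing the threshold. Control footprints were 72.5, 81.6 and 79.0 CPM and KO footprints 92.3, 83.5 and 85.7 CPM. No library overlapped, and the log2 fold change was 0.16 (SE 0.066, adjusted p = 0.0709, edgeR). On plain library sizes it was called (0.21, adjusted p = 0.00809, edgeR). Its RNA was 96.5, 87.8, 100.8 and 121 CPM in controls and 117, 109.9, 102 and 117 CPM in KO mice, with control mouse 8 the highest of all. The RNA change of 0.13 ± 0.086 (SE) was not called (adjusted p = 0.386, edgeR).

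Cnih2, the export factor, had the same shape. Its footprints were 31.6, 33.9 and 36.7 CPM in controls and 37.5, 39.2 and 39.8 CPM in KO mice, again without overlap and again not called (0.18 ± 0.096, SE, adjusted p = 0.169, edgeR). Its RNA was 88.2, 89.0, 115 and 136 CPM in controls and 126, 121, 117 and 125 CPM in KO mice. The controls fell into low values in mice 1 and 3 and higher ones in mice 6 and 8, and control mouse 8 exceeded every KO mouse. The RNA change of 0.19 ± 0.11 (SE) was not called (adjusted p = 0.313, edgeR).

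Grip1, the scaffold, was lower in every KO library of both assays and was called in neither. In RNA controls had 51.2, 45.6, 45.8 and 46.1 CPM and KO mice 42.5, 43.5, 41.8 and 43.7 CPM (log2 fold change -0.14, SE 0.065, adjusted p = 0.215, edgeR). In footprints controls had 33.0, 30.9 and 30.8 CPM and KO mice 28.0, 28.2 and 27.9 CPM (log2 fold change -0.17, SE 0.11, adjusted p = 0.265, edgeR). The 3 KO footprint libraries held 377 Grip1 counts in all. Grip1 was the only 1 of the 9 genes whose RNA libraries did not overlap between genotypes, against a background of 15.1% of genes. In footprints 5 of the 9 did not overlap (Gria1, Cacng8 and Grip1 lower, Cacng3 and Cnih2 higher in KO mice), against 37.3%.

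**Figure D2:**
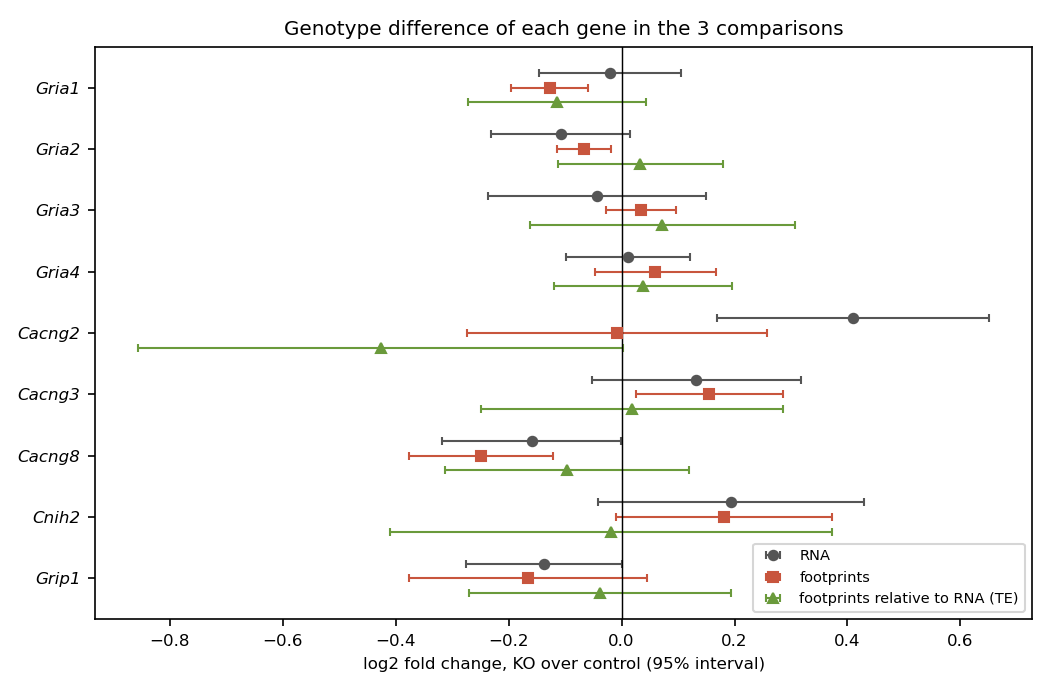
Log2 fold change of KO over control (x axis) with its 95% interval for each of the 9 genes (y axis), in RNA (grey circles), footprints (red squares) and TE (green triangles). Cacng2 stands apart in RNA (0.41) and has the lowest TE value (-0.43), and the footprint intervals of Gria1, Gria2, Cacng3 and Cacng8 lie off 0.

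Cacng2, Cacng3 and Cnih2 varied together in 6 of the 8 RNA libraries, among controls as well as between genotypes. In control mice 1 and 3 all 3 lay below their mean over the 8 libraries, by 0.13 to 0.52 on the log2 scale. In KO mice 2, 4 and 7 all 3 lay above it, by 0.05 to 0.35. Control mouse 8 also lay above, by 0.12 for Cacng2, 0.20 for Cacng3 and 0.26 for Cnih2. Gria2 had the opposite sign in these 6 libraries, from -0.10 in KO mouse 2 to 0.11 in control mouse 3. In the remaining libraries the 3 genes were split. Cacng2, Cacng3 and Cnih2 had -0.19, -0.07 and 0.02 in control mouse 6 and 0.04, -0.06 and 0.05 in KO mouse 5. Gria2 had 0.04 and 0.08 there, the same sign as Cnih2.

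**Figure D3:**
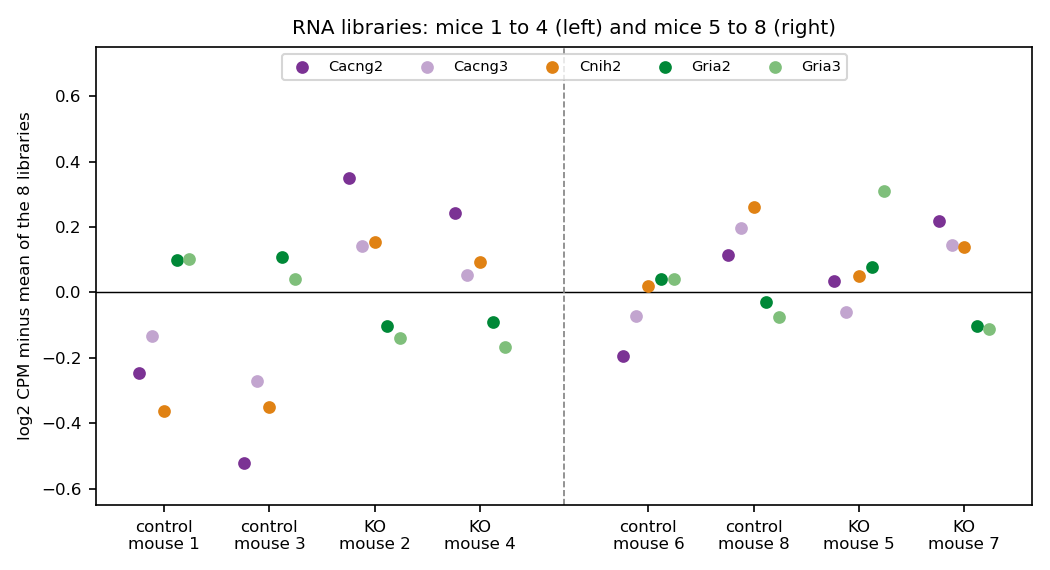
Log2 CPM of 5 genes minus the gene's mean over the 8 RNA libraries (y axis), for mice 1 to 4 on the left of the dashed line and mice 5 to 8 on the right. Cacng2, Cacng3 and Cnih2 are below 0 in control mice 1 and 3 and above 0 in KO mice 2, 4 and 7 and in control mouse 8. Their signs differ in control mouse 6 and KO mouse 5.

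The genotype contrast was read within each set of mice. Within mice 1 to 4, 6 of the 9 genes were called in RNA (edgeR): Cacng2, Cacng3 (0.30) and Cnih2 (0.49) higher, and Cacng8 (-0.19), Gria2 (-0.19) and Gria3 (-0.22) lower. Within mice 5 to 8 none was called, with 0.16 for Cacng2, -0.02 for Cacng3 and -0.05 for Cnih2. Only 57 of 13488 genes tested were called within mice 5 to 8, and 3284 of 13591 within mice 1 to 4. The fit of mice 1 to 4 rests on close pairs. The chi-square per degree of freedom was 1.32 for KO mice 2 and 4 and 1.99 for control mice 1 and 3. The spread behind its calls may therefore be technical. A test of the difference between the sets, added after these values were seen, called none of the 9 genes. The lowest adjusted p was that of Cnih2 (difference -0.53, SE 0.12, adjusted p = 0.127, edgeR), and for Cacng2 it was 0.231. That test called 3 of 13507 genes, with 1789 at an unadjusted p under 0.05. Without control mouse 8, Cacng3 (0.23, adjusted p = 0.0310, edgeR) and Cnih2 (0.33, adjusted p = 0.0124, edgeR) were called beside Cacng2.

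The promoters of Cacng2 and Cnih2, which varied together in RNA, are shown for reference as the 250 bases before the transcription start, from RefSeq (GRCm38.p6), read 5′ to 3′ on the strand of the gene. Capitals mark matches to the GC box GGGCGG on either strand.
Cacng2 (chr15:78119281-78119530, minus strand): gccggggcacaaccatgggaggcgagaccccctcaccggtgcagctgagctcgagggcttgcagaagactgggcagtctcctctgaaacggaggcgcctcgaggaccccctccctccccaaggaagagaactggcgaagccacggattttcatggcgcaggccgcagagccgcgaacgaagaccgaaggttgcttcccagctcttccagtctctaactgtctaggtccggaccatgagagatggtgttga
Cnih2 (chr19:5098522-5098771, minus strand): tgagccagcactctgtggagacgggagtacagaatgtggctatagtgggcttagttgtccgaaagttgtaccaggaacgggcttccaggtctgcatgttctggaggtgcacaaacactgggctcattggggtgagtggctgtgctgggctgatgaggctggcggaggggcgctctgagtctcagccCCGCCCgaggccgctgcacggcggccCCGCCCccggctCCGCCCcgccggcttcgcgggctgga

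Cnih2 held 3 GC boxes, which begin 64, 38 and 26 bases before the start, and Cacng2 held none. Over 32851 mouse promoter windows of this length, 32.7% held at least 1. The cAMP response element TGACGTCA, its shorter form TGACG, the TATA box TATAAA and the E-box CACGTG were searched on both strands too. None was found in these 2 windows, where the shares over all windows were 1.55%, 17.8%, 12.4% and 6.02%. TGACG lies within TGACGTCA, so those counts are not separate. GC content was 62.0% for Cacng2 and 65.6% for Cnih2, against a median of 52.4% over all windows. A match is a string of letters and shows no binding.

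Footprints relative to RNA asked whether ribosome occupancy per mRNA differed. In controls Gria3 had 1.26 footprint CPM per RNA CPM and Cnih2 had 0.318, with the other 7 genes between 0.594 and 0.978 and a median of 0.912 over all genes. Gria3 exceeded 71.7% of genes in this ratio and Cnih2 7.11%. Between genotypes none of the 9 genes was called by edgeR, none had an unadjusted p under 0.05, and DESeq2 called none. The largest difference was the lower TE of Cacng2, -0.43 ± 0.21 (SE, 95% interval -0.86 to 0.003, adjusted p = 0.228, edgeR). For Gria1 it was -0.11 (95% interval -0.27 to 0.04), and for Cacng8 -0.10 (-0.31 to 0.12). The intervals of Gria2, Gria3, Gria4, Cacng3, Cnih2 and Grip1 all spanned 0 and lay between -0.41 and 0.37.

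The 4 mice measured in both assays gave a ratio for each animal. Cacng2 had 0.790 and 1.06 in control mice 1 and 3 and 0.519 and 0.503 in KO mice 2 and 4. The KO mean was 55.2% of the control mean. Gria3 had 1.20 and 1.28 in controls and 1.44 and 1.47 in KO mice, and Gria1 had 0.835 and 0.855 in controls and 0.786 and 0.764 in KO mice. In 5 of the 9 genes the ratios did not overlap: Cacng2, Cnih2 and Gria1 were lower and Gria2 and Gria3 higher in KO mice. Over all 12145 genes 53.6% did not overlap, so 5 of 9 is near the background. With mouse as a replicate block, a fit in which only these 4 mice inform TE, Cacng2 (-0.87, adjusted p = 8.73e-05, edgeR) and Gria3 (0.22, adjusted p = 0.00497, edgeR) were called. This fit called 1832 genes in all, against 902 without the block. It leaves out mice 5 to 8 from TE, in which the RNA change was 0.16 for Cacng2 and 0.13 for Gria3, against 0.68 and -0.22 in mice 1 to 4. Cacng2 TE was called in 3 of the 19 alternatives run. The other 2 were without control mouse 8 (-0.55, adjusted p = 0.0490, edgeR) and limma voom with library weights (-0.55, adjusted p = 0.0226). The smallest value, without control mouse 3, was -0.20 (adjusted p = 0.636, edgeR).

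**Figure D4:**
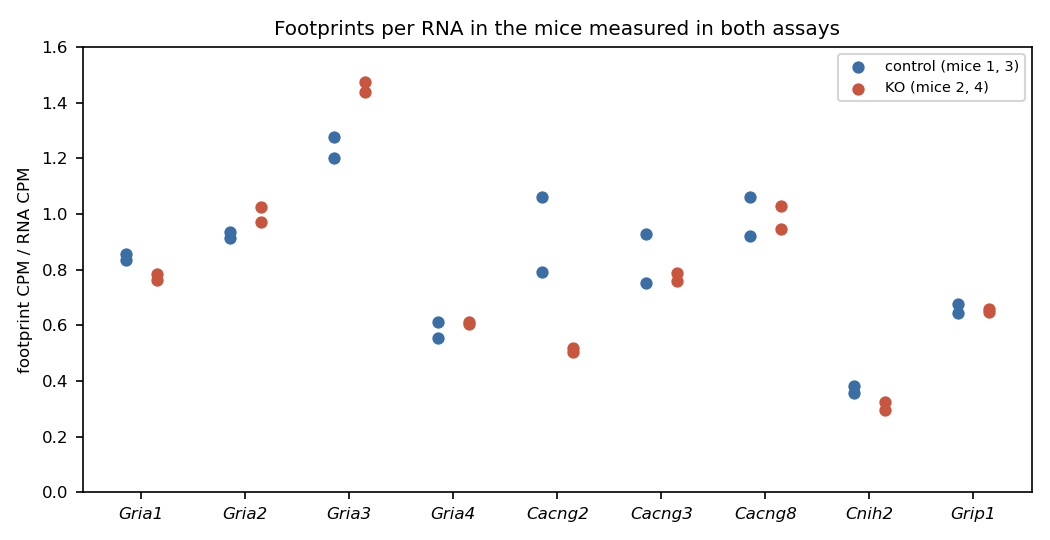
Footprint CPM divided by RNA CPM (y axis from 0) for the 9 genes (x axis) in control mice 1 and 3 (blue) and KO mice 2 and 4 (red). Cacng2 is lower in both KO mice (0.519 and 0.503 against 0.790 and 1.06), and Gria3 is higher in both.

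The RNA values above come from columns that cover the genes of the footprint columns, and a second set, whose headers name exons, held more counts for each of the 9 genes. The first set held 98.8% of the Cacng8 counts of the second in controls and 98.6% of those of Grip1, but 70.0% for Cacng3, 45.9% for Cnih2 and 37.1% for Cacng2. For the 4 Gria genes it held between 51.6% and 59.7%. By library the Cacng2 share was 29.2% to 44.0% in controls and 36.4% to 44.3% in KO mice, and these overlapped. Within mice 1 to 4 they did not, with 34.9% and 29.2% in control mice 1 and 3 and 44.3% and 43.3% in KO mice 2 and 4. The part of this share in the Cacng2 RNA and TE values was not tested. In the larger columns Cacng2 RNA rose by 0.27 (adjusted p = 0.0162, edgeR), and it was again the only gene of the 9 called. The counts outside the first region were also tested, a choice made after the values were seen, and none of the 8 genes with enough such counts was called. Cacng2 had 0.19 ± 0.081 there (SE, adjusted p = 0.215, edgeR). Cacng8 had the largest value, 1.12 ± 0.33 (SE, adjusted p = 0.0905, edgeR), opposite in sign to its footprint fall, from 3 to 17 such counts per control library and 22 to 28 per KO library.

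Another 46 genes act on AMPA receptors as further auxiliary subunits, synaptic organisers, anchoring or trafficking proteins or RNA editing enzymes. In RNA 3 of the 46 were called (6.52%, beside 7.51% of all genes). Arc, which drives AMPA receptor endocytosis and is an immediate early gene, rose by 1.73 (SE 0.30, adjusted p = 0.00428, edgeR). Its RNA was 58.8 to 151 CPM in controls and 136 to 330.1 CPM in KO mice, so the ranges overlapped. Snx27, a recycling factor, rose by 0.21 ± 0.059 (SE, adjusted p = 0.0450, edgeR). Akap5, which anchors kinase and phosphatase at the receptor, fell by 0.25 ± 0.058 (SE, adjusted p = 0.0206, edgeR). Summing KO mice 2, 4 and 7 ended these 3 calls, as did using only mice 5 to 8. Leaving out 1 mouse ended the Snx27 call for every mouse except control mouse 8, as did the title prefix as a block and no filter on low counts. The Snx27 value stayed between 0.16 and 0.24 over the 18 alternatives. Over the same 18, Arc lay between 1.07 and 2.44 and Akap5 between -0.34 and -0.14. The Akap5 call ended without control mouse 1 or KO mouse 2, 4 or 7, and in the larger RNA columns.

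In footprints 23 of the 46 were called (50%, beside 25.7% of all genes), 8 higher and 15 lower. Arc rose by 2.75 (SE 0.041, adjusted p = 4.30e-77, edgeR), with 83.6 CPM in each control and 554 to 571 CPM in KO mice. Olfm2, a secreted protein found with the receptor, rose by 0.49, Rnf167, a ubiquitin ligase for its subunits, by 0.43, and Eps15, an endocytic adaptor, by 0.42. The largest falls were those of the TARP Cacng5 (-0.62 ± 0.17, SE, adjusted p = 0.00288, edgeR), the Gria1 anchor Epb41l1 (-0.43), Akap5 (-0.40) and the kinesin motor Kif5a (-0.36). These 8 genes were called under all 12 footprint alternatives. On plain library sizes the split of the 46 was 9 higher and 11 lower.

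In TE 8 of the 46 were called (17.4%, beside 7.43% of all genes), 2 higher and 6 lower, or 3 higher and 5 lower on plain library sizes. Olfm3 (0.44 ± 0.098, SE, adjusted p = 0.00744, edgeR) and Olfm2 (0.35) were higher. Prrt1, an auxiliary subunit, was lower by the most (-0.71 ± 0.13, SE, adjusted p = 0.00159, edgeR), followed by Kif5a (-0.61), Epb41l1 (-0.60) and the transmembrane partner Shisa7 (-0.46). The footprints of Prrt1 were 183 to 199.9 CPM in controls and 143 to 155 CPM in KO mice while its RNA was 8.29 to 11.2 CPM and 11.3 to 14.4 CPM. Olfm2 lost its call without KO mouse 2 or 4 and with KO mice 2, 4 and 7 summed. Olfm3 lost it without KO mouse 2 or control mouse 3 and in the larger RNA columns, and Shisa7 without KO mouse 2. Over the 19 alternatives the values lay at 0.29 to 0.41 for Olfm2, 0.36 to 0.50 for Olfm3 and -0.53 to -0.40 for Shisa7. The median log2 fold change of the 46 genes was 0.05 in RNA, -0.06 in footprints and -0.10 in TE. On plain library sizes it was -0.005 in footprints and -0.04 in TE.

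**Figure D5:**
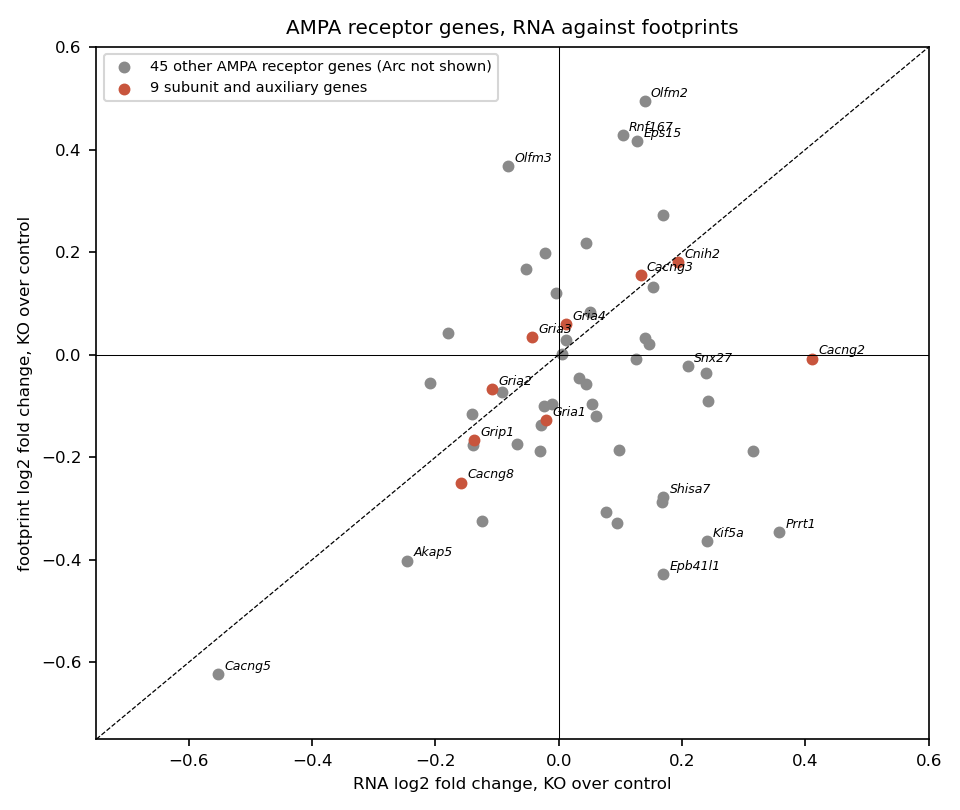
RNA (x axis) against footprint (y axis) log2 fold change, KO over control, for the 9 genes (red) and 45 of the 46 other AMPA receptor genes (grey), with the dashed line of equal change. Arc (1.73 and 2.75) lies outside the axes. Epb41l1, Kif5a, Prrt1 and Shisa7 lie above 0 in RNA and below 0 in footprints, and Cacng2 lies near 0 in footprints.

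Other receptor families are set beside these values, where 25.7% of all genes were called in footprints. The 6 NMDA receptor subunits tested had a median footprint change of -0.26, with Grin2b, Grin2d and Grin3a lower and Grin1 higher among those called, where the 4 Gria subunits had a median of -0.02. Kainate and delta subunits (7 genes) had a median of -0.07 and 0 called by edgeR, with 0 at an unadjusted p under 0.05. The 14 GABA-A receptor subunits tested had a median of 0.07, with 5 higher and 2 lower, or 7 higher and 1 lower on plain library sizes. On plain library sizes the footprint medians were -0.20 for NMDA, -0.01 for kainate and delta, 0.13 for GABA-A and 0.04 for the Gria subunits. These families were described side by side, and the difference between them was not tested.

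Genes with the most similar pattern to each subunit were found by Pearson's r of log2 CPM centred within assay over the 14 libraries, among 12142 genes. They were Dner (0.93) and Dpysl2 (0.92) for Gria1, Gnl3l (0.98) and Ssb (0.96) for Gria2, and Scn2a1 (0.92) and Gad1 (0.92) for Gria3. For Gria4 they were Cep95 (0.86) and Gm561 (0.86). The libraries share genotype, depth and the near identity of KO mice 2, 4 and 7, so these values only describe the libraries.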

How the data were processed

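The authors deposited 1 table of whole-number counts per gene, with no normalization. The submitters' processing notes name STAR 2.5, Bowtie2, featureCounts, Subread 1.4.6, mm9 and mm10 without roles. The region counted and the strand setting are not given in the sources used here, so reads of antisense partners cannot be told apart. RNA-seq used a strand-specific kit after removal of ribosomal RNA, and footprints came from monosomes of nuclease-treated lysates, per the labels' protocols. Genes with no value in the columns used (2849 of 23412) were left out.

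The 9 genes and the gene lists were chosen with earlier results of these data known. Counts were tested with edgeR 4.0.16 (R 4.3.3; quasi-likelihood, TMM, filterByExpr at a minimum count of 10, group means). TE was the interaction of genotype and assay over 14 libraries. P-values were two-sided and Benjamini-Hochberg adjusted over every tested gene, with calls under 0.05. Standard errors were derived from the F statistic. The scripts were tested on simulated data. Named among the 46 further genes were up to 4 called ones that rose most and 4 that fell most per comparison, and for each Gria gene the 2 with the highest r (mean of at least 1 CPM, log2(CPM + 0.5)). Grin subunits and single marker genes were named after their values were seen. Promoters of the other genes are not reported here.

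Equal mouse numbers in the labels mean the same animal in both assays for mice 1 to 4. Deviations from group means of RNA and footprints correlated at 0.004 (mouse 1), 0.01 (mouse 2), 0.05 (mouse 3) and -0.005 (mouse 4) over 8918 genes, so the pairing rests on the labels. Each library is labelled as 1 mouse, and p-values measure the spread between these libraries, which may be technical for KO mice 2, 4 and 7 in RNA. Pairs of footprint libraries were not checked for near identity, so whether their spread is technical was not tested. Over the 9 genes, the SD of KO footprint CPM was 0.54% (Gria3) to 6.22% (Cacng2) of the mean. In control footprints it was 2.42% (Gria2) to 16.6% (Cacng2). Alternatives were other scaling, DESeq2 1.42.0, limma 3.58.1 voom, no filter, the larger RNA columns, blocks, summed libraries, sets of mice and leaving out each mouse.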

Additional observations from a re-analysis of the deposited data

Results flagged for a closer look

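In the RNA groups of 4 mice, 5 of 18 gene and genotype groups held a library whose gap to its nearest neighbour exceeded Dixon's 95% critical value as a share of the group's range. Chance flags about 1 in 20, or 0.9 here, if groups were independent, which these are not. KO mouse 5 was far above the other 3 KO mice in Gria1 (506 CPM against 435 to 444), Gria2 (1118 CPM against 985 to 995) and Gria3 (416 CPM against 299 to 310.1). Control mouse 1 was below the other controls in Cacng8 (86.6 CPM against 96.1 to 97.8) and above them in Grip1 (51.2 CPM against 45.6 to 46.1). KO mice 2, 4 and 7 were nearly identical, so a gap among KO mice tends to fall to mouse 5.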

How the results depend on the processing

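Of the 9 genes, leaving out 1 mouse gave 0 to 3 RNA calls, 2 to 3 footprint calls and 0 to 1 TE calls. Over all genes the RNA calls then numbered 372 to 1791, footprint calls 2546 to 2876 and TE calls 381 to 1230. In RNA, summing KO mice 2, 4 and 7 left 85 genes and 0 of the 9, and also summing control mice 1 and 3 left 36 and 0. Mice 5 to 8 alone gave 57 and 0, and mice 1 to 4 alone 3284 and 6. In footprints, DESeq2 called 1775 genes, and the 14-library fit 1525 and 1 of the 9 (Cacng8). In TE, the sums called 511 and 516 genes, the replicate block 1832 and 2 of the 9, and limma voom 1903 and 1. The replicate block changed no other call of the 9, and the title prefix as a block changed no call of the 9. On plain library sizes the median of all genes in footprints was 0.07 against 0.006, and 66.3% of calls were higher against 46.8%. In TE these shares were 67.1% and 42.9%. Of the 9 genes and the 46, no alternative turned the direction of a called value. Marker genes and other receptor families were not followed gene by gene. Among the 9 genes, depth limits Cacng2 most, with 263 to 310 footprint counts per genotype. Some of the other 46 had fewer, such as Cacng5 with 226 in controls and 125 in KO mice. The other 46 genes had 0 to 21 RNA calls (3 in the report), 14 to 23 in footprints (23) and 4 to 15 in TE (8).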
